A study of Mus musculus with 4 samples.

Results

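The data describe the 2 oligodendrocyte clusters of a single-nucleus RNA sequencing experiment on the adult mouse dentate gyrus, the cluster named Oligo (oligodendrocytes) and the cluster named OPC (oligodendrocyte precursor cells). The nuclei were chosen by the cluster names that the authors deposited, 45 nuclei of Oligo and 131 of OPC among the 14367 nuclei of the series. The animals were male and female mice with an inducible CreERT2 driver and the CAGfloxStop-Sun1/sfGFP reporter on a C57Bl/6J background, 6 to 8 weeks old at the start, and all of them received tamoxifen, so no untreated group exists. Cre switched on the nuclear membrane protein Sun1-sfGFP in cells in which the driver was active at that time, and their progeny kept the label. Labelled nuclei were sorted 1, 2, 4 and 8 weeks later (libraries w1, w2, w4 and w8), and each library pooled the left dentate gyri of 4 mice. The samples are labelled as adult-born granule cells, which is not what these 176 nuclei are. The oligodendrocyte nuclei of w1, w2, w4 and w8 numbered 6, 10, 16 and 13, and the precursor nuclei 25, 36, 35 and 35.

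Oligodendrocytes wrap axons in myelin, a stack of lipid-rich membrane held together by a small set of proteins. They arise throughout life from precursor cells that divide, respond to platelet-derived growth factor through the receptor Pdgfra, carry the proteoglycan Cspg4 (NG2) and receive synapses from neurons. On the way the precursor leaves the cell cycle, passes through a short premyelinating stage and then switches on the myelin genes, under transcription factors of the Sox, Olig and Myrf families. The comparison asked which genes differ between the 2 ends of this path in the dentate gyrus and which are held in common.

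The names were first set beside marker genes. Mog, Mag, Cspg4 and Prkg2 are among the genes by which the authors named these clusters, so their values describe the clusters and do not test the names. Mog, a glycoprotein of the outer myelin surface, had a UMI (unique molecular identifier, 1 counted RNA molecule) in 45 of 45 oligodendrocyte nuclei and in 2 of 131 precursor nuclei, and Mag, an adhesion protein of the innermost myelin layer, in 43 and 1. Cspg4 had a UMI in 95 precursor nuclei (72.5%, exact 95% interval 64.0 to 80.0%) and in 4 oligodendrocyte nuclei (8.89%, 2.48 to 21.2%), Pdgfra in 124 (94.7%) and 0, and Prkg2, a cGMP-dependent kinase, in 76 (58.0%) and 0. With 0 of 45 nuclei, the upper limit of the share is 7.87%. Of the 3356 mature granule neurons of the cluster GCmat1, which should lack these genes, 0.596% had a UMI of Mog and 0.119% one of Cspg4, at a median depth of 8138 UMIs against 4801 in Oligo and 4750 in OPC. Over 14 oligodendrocyte markers the oligodendrocyte nuclei held 40 to 193 UMIs (median 75) and the precursors 0 to 3 (median 0), whereas over 14 precursor markers they held 0 to 14 (median 2) and 43 to 371 (median 125). No nucleus had as many UMIs of the other list as of its own.

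**Figure D1:**
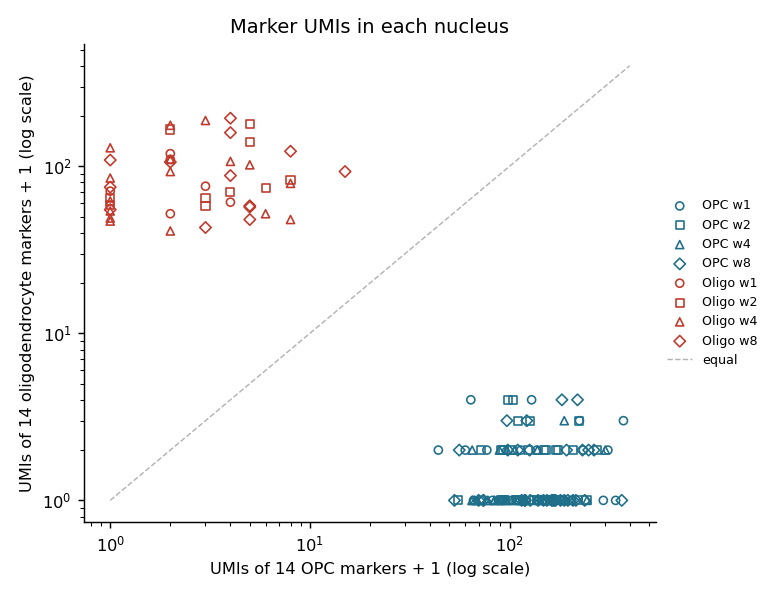
UMIs of the 14 oligodendrocyte markers against UMIs of the 14 OPC markers in each of the 176 nuclei, both with 1 added and on log scales; colours give the cluster, symbols the library and the dashed line equal counts. The 45 Oligo nuclei sit at 40 or more oligodendrocyte-marker UMIs and the 131 OPC nuclei at 3 or fewer, with no nucleus near the line.

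To compare the clusters, UMIs were summed per library and cluster and levels are given as CPM, UMIs per 1000000 UMIs of that sum. One UMI is worth 42.6 CPM in the w1 oligodendrocytes, 18.8, 13.1 and 14.98 CPM in w2, w4 and w8, and 4.87 to 7.67 CPM in the precursors. The test used w2, w4 and w8, which hold at least 10 nuclei of each cluster, 39 oligodendrocyte and 106 precursor nuclei with 196165 and 544802 UMIs. Both clusters of a library come from the same pool of mice, so the library was a term of the fit (edgeR, quasi-likelihood test). That term takes out the differences between pools. The p-values thus rest on how the difference between the clusters varied over the 3 pools, which also differ in week. A gene's own sums left 2 residual degrees of freedom, and the spread taken from the other genes entered with 11.9 prior degrees of freedom. The clusters were drawn on these same counts, so that differences between them are partly built in, and no p-value here bears on whether the clusters exist.

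Of 2360 genes tested, 1235 (52.3%) differed by at least 1.5-fold with p-values adjusted by Benjamini-Hochberg no higher than 0.05. Of these, 522 (22.1% of the genes tested) were higher in oligodendrocytes and 713 (30.2%) were lower. With no filter on low counts, which also changes the scaling, 544 were higher and 1341 lower, so that 28.9% of the changed genes were higher in place of 42.3%. The median change of the genes that were higher was 2.16 on the log2 scale and that of the genes that were lower was -3.43. No UMI was found in the lower cluster for 21 of the 522 and for 112 of the 713, which passed the filter on low counts only through the cluster where they were high. Genes with few UMIs in every library of the lower cluster, such as Mog, passed it in the same way and were not counted. For all of these the filter favoured the direction of the call. The library values of the clusters did not overlap for 1399 genes (59.3%). In w1, which the test did not use, 487 of the 522 genes were again higher in oligodendrocytes and 685 of the 713 were lower, against 1043 higher and 1315 lower among all 2360. Over the 13 clusters of the series, 403 of the 522 genes had their highest level in Oligo, but 221 of the 713 had theirs in OPC. Among all 2360 genes tested the counts were 493 and 271.

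**Figure D2:**
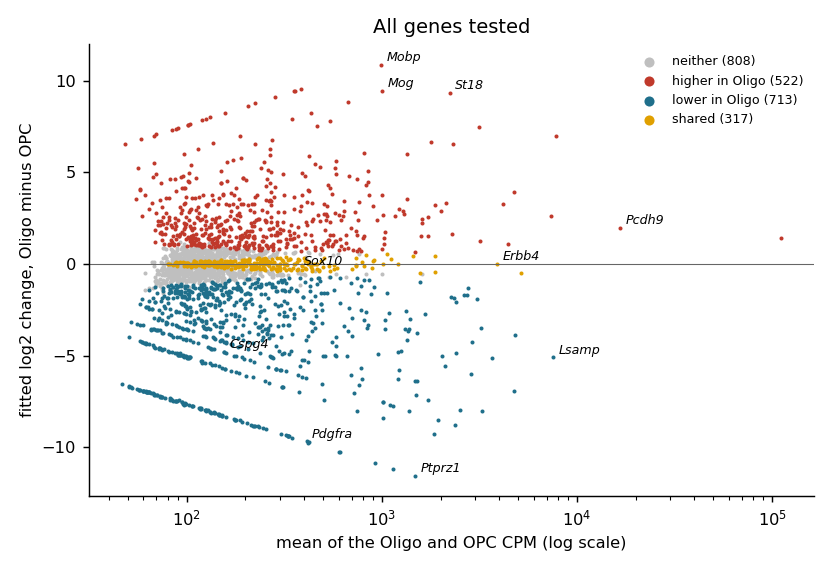
Fitted log2 change (Oligo minus OPC) of the 2360 genes tested against the mean of the Oligo and OPC CPM (log scale), coloured by call. The 713 lower genes reach further from 0 than the 522 higher ones, the diagonal lines of points are genes with 0 or few UMIs in 1 cluster, and the 317 shared genes lie along 0.

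Total UMIs were not spread alike over genes in the 2 clusters. Malat1, a nuclear long non-coding RNA that was chosen after its values were seen, stood at 164092, 166857, 171749 and 153081 CPM in the oligodendrocytes of w1, w2, w4 and w8 and at 57072, 56804, 65035 and 56589 CPM in the precursors (log2 change 1.41, SE 0.12, adjusted p = 3.6e-07). The sodium pump-interacting protein gene Nkain2, also chosen after its values were seen, stood at 14724, 13147, 16548 and 16641 CPM against 0, 224, 68.9 and 61.3 CPM (log2 change 7.0, SE 0.34). Scaling by TMM on all 15176 genes with a UMI, in place of the 2360 tested, moved the median change of those 2360 genes by -0.27 on the log2 scale, and fitting all clusters together moved it by -0.19.

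Myelin genes led the increases, with 8 oligodendrocyte markers among the 15 genes with the largest fitted increase. Of the 14 oligodendrocyte markers 11 were tested and each was higher in oligodendrocytes. This is a description only, since Mog and Mag named the cluster. Of the 11, 5 had no precursor UMI in the libraries tested and the others had few, so that all 11 passed the filter only through oligodendrocytes. Mobp, a cytoplasmic myelin protein (ENSMUSG00000032517, chr9:120149707-120181484, plus strand; positions from GENCODE M21, GRCm38), stood at 1106, 1613, 2064 and 2292 CPM in w1, w2, w4 and w8 and had no UMI in any precursor library, so that it was at least 367-fold higher (adjusted p = 1.0e-08; bounds rest on 3 UMIs over the libraries tested). Mog (ENSMUSG00000076439, chr17:37010743-37023398, minus strand) stood at 2255, 2438, 1945 and 1618 CPM in the oligodendrocytes and at 7.67, 4.87, 0 and 0 CPM in the precursors, a ratio of 1072 with a counting interval of 191 to 42451 (adjusted p = 2.1e-09). In each of the 4 libraries both genes were far above the precursor level, and the groups did not overlap (over the libraries tested, 59.3% of all genes tested did not).

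The structural myelin proteins moved with them. Mbp, which compacts the cytoplasmic faces of the membrane, stood at 5787, 5758, 6743 and 6396 CPM against 46.0, 48.6, 18.8 and 27.8 CPM (log2 change 7.49, SE 0.38). A UMI of Mbp was found in 12.98% of precursor nuclei but also in 40.0% of the mature granule neurons, and with every nucleus thinned to 2000 UMIs in 3.82% and 12.9%. The share in precursors thus lay below that in the mature granule neurons, and the source of the Mbp UMIs in either was not tested. Cldn11, the tight junction protein of myelin, stood at 638 to 734 CPM and was at least 131-fold higher. Opalin, a transmembrane protein of the inner loop (468 to 591 CPM, at least 104-fold), Ermn, a cytoskeletal protein of late myelination (209.7 to 302 CPM, at least 48.1-fold), and Aspa, the enzyme that splits N-acetylaspartate (578 to 1362 CPM, at least 137-fold), likewise had no UMI in any precursor library. Cnp, which keeps cytoplasmic channels in myelin open, changed least of the 11 (383, 225, 276 and 149.8 CPM against 30.7, 29.2, 6.26 and 11.1 CPM, log2 change 3.64, SE 0.58).

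Among the 15 largest fitted increases were also genes that code for no myelin protein. Sec14l5, a lipid-transfer domain gene (565 to 839 CPM), and Daam2, a formin that acts in Wnt signalling (298 to 509 CPM), had no UMI in precursors and were at least 127-fold and 75.9-fold higher. Prr5l, a partner of the mTORC2 kinase complex, stood at 2341, 1632, 1380.1 and 1004 CPM and had 1 precursor UMI in the libraries tested (ratio 719, counting interval 128 to 28519.6). D7Ertd443e stood at 244 to 511 CPM against 0 to 7.67 CPM. For each of these genes the lowest oligodendrocyte library lay above the highest precursor library. They were picked for a large increase in every library tested, so this describes the choice, and 59.3% of all genes tested did not overlap either.

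The bases before the start site are shown for the gene with the largest fitted change in either direction, Mobp and Ptprz1 (a rank by fitted value, since both had 0 UMIs in the lower cluster of the libraries tested and only a bound of their fold is known), and for a naming marker of each cluster, Mog and Cspg4, so that the regions in front of genes that move together can be read side by side. Capitals mark the hexamer ACAAAG or its reverse complement CTTTGT, a core that Sox proteins are known to bind, searched on both strands and chosen after the windows had been read. The sequences are the 250 bases before the RefSeq start (GRCm38.p6), 5′ to 3′ on the strand of the gene, at chr9:120149492-120149741 (plus strand) for Mobp, chr17:37023399-37023648 (minus strand) for Mog, chr6:22875252-22875501 (plus strand) for Ptprz1 and chr9:56864854-56865103 (plus strand) for Cspg4.
Mobp: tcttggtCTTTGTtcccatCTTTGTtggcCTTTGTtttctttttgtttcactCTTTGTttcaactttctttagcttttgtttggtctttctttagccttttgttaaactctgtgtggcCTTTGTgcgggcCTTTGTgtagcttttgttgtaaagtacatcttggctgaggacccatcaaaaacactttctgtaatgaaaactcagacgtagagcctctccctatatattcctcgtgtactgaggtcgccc
Mog: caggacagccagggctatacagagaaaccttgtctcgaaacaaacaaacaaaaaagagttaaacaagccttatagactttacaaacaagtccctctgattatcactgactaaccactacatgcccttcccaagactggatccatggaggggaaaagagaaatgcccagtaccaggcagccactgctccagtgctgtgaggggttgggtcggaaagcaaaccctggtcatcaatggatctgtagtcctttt
Ptprz1: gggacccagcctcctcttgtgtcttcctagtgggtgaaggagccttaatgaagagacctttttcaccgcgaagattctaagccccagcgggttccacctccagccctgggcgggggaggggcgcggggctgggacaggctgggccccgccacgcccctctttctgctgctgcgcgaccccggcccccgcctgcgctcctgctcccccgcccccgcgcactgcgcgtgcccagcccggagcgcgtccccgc
Cspg4: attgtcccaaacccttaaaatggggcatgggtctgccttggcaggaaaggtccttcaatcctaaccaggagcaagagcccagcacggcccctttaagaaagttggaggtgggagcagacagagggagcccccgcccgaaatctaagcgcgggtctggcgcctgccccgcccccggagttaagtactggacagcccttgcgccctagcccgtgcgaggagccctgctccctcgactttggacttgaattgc
The Mobp window held 6 copies of the hexamer and the other 3 windows held 0. Of all 32851 windows of this length, 16.5% held at least 1 copy and 1.74% at least 2. Of the 15 largest increases 13 had a window and 4 of those, Mobp included, held the hexamer. The hexamer was found in 0 of 9 windows of the 15 largest decreases and in 1 of 6 (16.7%) of the shared genes described further on that stood high in both clusters. Because it was chosen on sight of these windows, the counts support no contrast, and the matches are of letters, not measured binding sites.

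**Figure D3:**
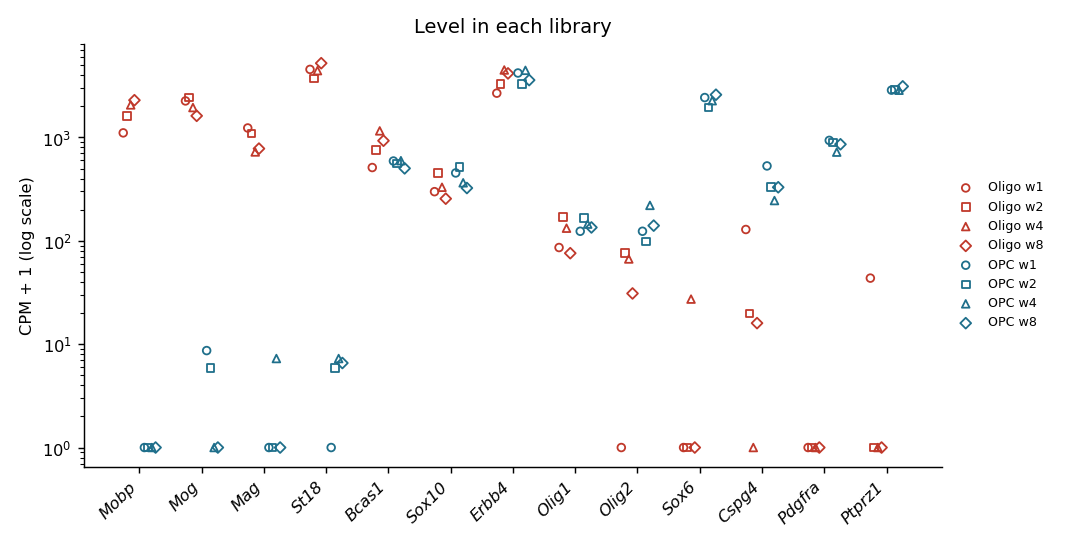
CPM with 1 added (log scale) of 13 genes in each library, Oligo in red and OPC in blue, with symbols for w1, w2, w4 and w8. Mobp, Mog, Mag and St18 are higher in every Oligo library, Sox6, Cspg4, Pdgfra and Ptprz1 in every OPC library, and the 2 clusters overlap for Bcas1, Sox10, Erbb4 and Olig1.

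Other proteins of the myelin membrane and of the axon-glia contact were next described. Of 15 membrane and axoglial junction proteins 9 were tested, and 8 were higher and 0 lower, against 22.1% and 30.2% of all genes tested (median log2 change 2.28). The count of higher genes was 6 with DESeq2, 7 without w2 and 6 without w4. Nfasc, whose glial form anchors the paranodal loops, stood at 766, 1369, 2116 and 1408 CPM against 184, 219, 163 and 134 CPM (log2 change 3.17, SE 0.27), and Cntn2, the adhesion protein of the juxtaparanode, at 426, 244, 118 and 389 CPM with no precursor UMI (at least 44.4-fold). Tspan2, a tetraspanin of myelin, stood at 809 to 1332 CPM against 16.7 to 56.4 CPM, and the connexin gene Gjc3 at 1234, 656, 775 and 719 CPM against 299, 331, 163 and 490.1 CPM. The Gjc3 call was lost without w4 (adjusted p = 0.133) and with DESeq2 (0.0685). Pllp, a proteolipid of myelin membranes, had a log2 change of 0.93 (SE 0.41, adjusted p = 0.0721).

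Most enzymes of myelin lipids had too few UMIs for the test. Of 24 lipid and cholesterol genes 8 were tested, and 7 were higher and 1 was lower, against 22.1% and 30.2% of all genes tested, and 5 were higher without w2. Ugt8a, which makes galactosylceramide, stood at 809, 881, 789 and 1048 CPM against 115, 122, 144 and 162 CPM (log2 change 2.61, SE 0.27), and Fa2h, which hydroxylates its fatty acid, at 723, 1013, 828 and 914 CPM against 76.7, 112, 68.9 and 94.7 CPM (3.26, SE 0.29). Elovl7, a fatty acid elongase, had a log2 change of 4.13 (SE 0.51) and Cers2, the synthase of very long chain ceramides, one of 2.55 (SE 0.46). Sgms1, a sphingomyelin synthase, was lower (42.6, 75.0, 39.4 and 74.9 CPM against 207, 180, 188 and 195 CPM, log2 change -1.65, SE 0.47). The enzymes of cholesterol synthesis had too few UMIs to be tested. Cyp51, which demethylates lanosterol, had 21 UMIs in oligodendrocytes and 16 in precursors over the libraries tested.

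The cytoskeleton genes of myelinating processes gave 11 higher and 1 lower call among 16 tested of 20, where 22.1% and 30.2% of all genes tested were called, and 4 passed no threshold. Tubb4a, a beta-tubulin, stood at 979, 1257, 1577 and 1108 CPM against 38.3, 43.8, 43.8 and 44.6 CPM (log2 change 4.80, SE 0.35). Mapt, the microtubule protein tau, had a log2 change of 2.63 (SE 0.22), and Map7, which recruits kinesin, one of 3.78 (SE 0.25). Sept4 and Sept7, septins of the filaments under compact myelin, were higher (5.31 and 1.79), whereas Sept8 was lower (128, 56.3, 26.3 and 0 CPM against 161, 136, 113 and 128 CPM, -2.28, SE 0.75), although its w1 oligodendrocytes lay within the precursor range. Every one of these lists lay above the median of all genes tested, -0.18.

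**Figure D4:**
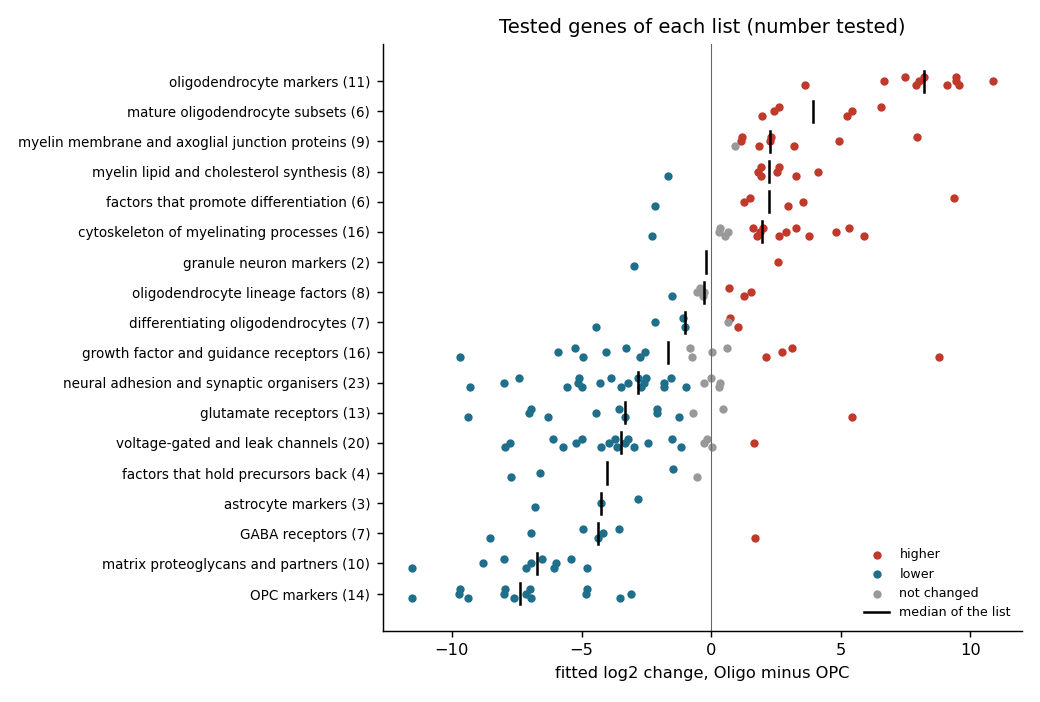
Fitted log2 change (Oligo minus OPC) of the tested genes of each list with at least 2 tested, with the number tested in parentheses, colours for the call and a bar at the list's median. The medians of the oligodendrocyte markers, mature subsets and myelin, lipid and cytoskeleton lists lie to the right of 0, those of the OPC and astrocyte markers, proteoglycans, transmitter receptors, channels and adhesion genes to the left, and that of the lineage factors near 0, with single genes on the other side in several lists; genes with no UMI in 1 cluster are drawn at their fitted value, which is no bound.

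Oligodendrocytes were further described by genes that mark subsets of mature cells. All 6 tested of 12 such genes were higher (22.1% of all genes tested). Ptgds, prostaglandin D synthase, stood at 1149, 1200.3, 1341 and 809 CPM against 23.0, 9.73, 56.4 and 22.3 CPM, and Car2, carbonic anhydrase, at 681, 525, 407 and 404 CPM against 7.67, 0, 6.26 and 5.57 CPM. Enpp2 (autotaxin), which releases lysophosphatidic acid, had a log2 change of 2.41 (SE 0.23), and Pde4b, a cAMP phosphodiesterase, one of 2.62 (SE 0.17). The metabotropic glutamate receptor gene Grm3 stood at 1659.7, 450.1, 867 and 1348 CPM against 61.4, 9.73, 6.26 and 39.0 CPM (log2 change 5.45, SE 0.53). Klk6 had no UMI in either cluster, and Apod had 255, 113, 52.6 and 74.9 CPM in the oligodendrocyte libraries, too few UMIs for the test. Il33, an alarmin cytokine, had 21 UMIs in oligodendrocytes and 1 in precursors. S100b, a list member that was not tested, went the other way in w2, w4 and w8. It had a UMI in 11 of 36, 8 of 35 and 9 of 35 precursor nuclei there. The oligodendrocyte nuclei with a UMI were 2 of 10, 2 of 16 and 2 of 13. In w1 the counts were 8 of 25 precursor and 2 of 6 oligodendrocyte nuclei.

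Of 12 genes of the premyelinating stage 7 were tested, and 2 were higher and 4 were lower, beside 22.1% and 30.2% of all genes tested. The 2 higher genes were Bcas1 and Sirt2, and neither was called with DESeq2 (0 higher, 2 lower), with no filter on low counts (0 and 5) or without w4 (0 and 4). Sirt2, a tubulin deacetylase, was also lost without w2 (adjusted p = 0.0745; without w4 0.0696). Enpp6, a phosphodiesterase that marks newly formed oligodendrocytes, had 2 UMIs in the oligodendrocytes and 0 in the precursors, and Bmp4, a growth factor of committed precursors, had 0 and 4. Gpr17, a receptor of late precursors, had no UMI in oligodendrocytes and stood at 30.7, 87.6, 43.8 and 78.0 CPM in precursors, where 35 of 131 nuclei had a UMI (26.7%, interval 19.4 to 35.2%). Itpr2, a calcium channel of the endoplasmic reticulum, stood at 0, 0, 52.6 and 14.98 CPM against 568, 569, 569.8 and 507 CPM (log2 change -4.45, SE 0.75), and Tcf7l2, the effector of Wnt signalling, at 0, 0, 39.4 and 59.9 CPM against 199, 199, 113 and 167 CPM (-2.16, SE 0.67). Both were lower in oligodendrocytes in each library. Bcas1, a myelin-associated protein of early myelinating cells, was present in both clusters, at 511, 750.2, 1157 and 929 CPM against 591, 559, 595 and 501 CPM. Its log2 change of 0.72 (SE 0.23, adjusted p = 0.0158) was lost without w4 (adjusted p = 0.195) or w8 (0.0530) and with DESeq2 (0.287). Fyn, a kinase that acts on local Mbp translation, was lower (-1.01, SE 0.32), and its call was lost without w8 (adjusted p = 0.0577), with DESeq2 (0.1215) and with nuclei thinned to 2000 UMIs (0.0519).

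On the precursor side, all 14 precursor markers were tested and each was lower in oligodendrocytes, again a description only, since Cspg4 and Prkg2 named the cluster and 7 of the 14 had no oligodendrocyte UMI in the libraries tested. Pdgfra had no UMI in any oligodendrocyte library and stood at 936, 890.3, 720 and 858 CPM in precursors, at least 54.2-fold higher there (adjusted p = 4.5e-07). Cspg4 (ENSMUSG00000032911, chr9:56865033-56899870, plus strand) stood at 128, 18.8, 0 and 14.98 CPM in oligodendrocytes and at 529, 331, 244 and 329 CPM in precursors, where the ratio was 29.9 with a counting interval of 8.14 to 249. The 4 oligodendrocyte nuclei with Cspg4 held 5 UMIs between them, 3 of which lay in w1. Cacng4, an auxiliary subunit of AMPA receptors (564 to 828 CPM in precursors, at least 44.2-fold), and Neu4, a sialidase (184 to 375 CPM, at least 17.3-fold), had no UMI in oligodendrocytes. Matn4 (-3.09, SE 0.73) and Luzp2 (-3.53, SE 0.29) changed least of the 14.

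Matrix proteoglycans and their partners gave 10 lower and 0 higher calls among 10 tested of 16 (30.2% and 22.1% of all genes tested), with a median log2 change of -6.73. This is a description only, since 4 of the 10 are also precursor markers, among them Cspg4, which named the cluster. Ptprz1 and Chst9 had no oligodendrocyte UMI in the libraries tested. None of the 10 would have passed the filter on low counts without the precursors, so that the filter itself favoured lower calls in this list. Ptprz1, a receptor phosphatase that carries chondroitin sulphate (ENSMUSG00000068748, chr6:22875502-23052916, plus strand), stood at 2868, 2914, 2861 and 3119 CPM in the precursors and had 1 UMI in the oligodendrocytes, in w1 (42.6, 0, 0 and 0 CPM), and was at least 194-fold higher in precursors over the libraries tested. Tnr, the matrix protein tenascin-R, stood at 4977, 4802, 5084 and 4372 CPM against 0, 0, 13.1 and 14.98 CPM in oligodendrocytes, a ratio of 465 (counting interval 129 to 3843). Vcan (versican) stood at 1465, 1119, 1747 and 1587 CPM against 0, 18.8, 0 and 0 CPM. The glypican gene Gpc5 and Xylt1, the xylosyltransferase that starts the sugar chains, had log2 changes of -5.99 (SE 0.54) and -7.15 (SE 0.78). Cspg5, the glypican gene Gpc6 and Bcan (brevican) had 2, 2 and 1 oligodendrocyte UMIs in the libraries tested and ratios of 72.2 (19.9 to 598), 95.1 (26.2 to 787) and 51.5 (9.09 to 2048). The summed level of the list was 19752 to 21435 CPM in the precursor libraries and 74.9 to 766 CPM in the oligodendrocyte libraries. The 766 CPM is that of w1, where Hapln2 alone stood at 596 CPM. Hapln2, a list member that was not tested, went the other way, with a UMI in 20.0% of oligodendrocyte and 0.763% of precursor nuclei. Of the 10, 4 were not highest in OPC among the 13 clusters, Ptprz1 being higher in RGL (radial glia-like cells, 3709 CPM), Bcan and Gpc5 in Astro (astrocytes, 486 and 12939 CPM) and Chst9, a sulphotransferase, in GCmat1 (442 CPM).

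Other genes among the 15 largest fitted decreases had diverse roles. Sgcd, a sarcoglycan of the dystrophin complex (2792, 1892, 2392 and 2534 CPM in precursors), Ptprt, an adhesion phosphatase (2132, 1629.8, 1797 and 2122 CPM), and Dpp10, an auxiliary subunit of A-type potassium channels (905, 739, 839 and 947 CPM), had no UMI in any oligodendrocyte library. They were at least 147-fold, 120.4-fold and 54.7-fold higher in precursors. The same held for Pid1, Megf11, Tox, Pde7b, Spon1, Ppfibp1 and the antisense gene Gm4876, which overlaps Tes on the other strand, with bounds of 41.6-fold to 79.6-fold. Whether the counting kept the strands apart is not given in the sources used here.

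Receptors for transmitters were mostly lower in oligodendrocytes. Among glutamate receptors 10 of 13 tested (19 in the list) were lower, against 30.2% of all genes tested, and Grm3 alone was higher, with a median log2 change of -3.32. The AMPA receptor subunit Gria3 had no UMI in oligodendrocytes and stood at 537, 613, 751 and 618 CPM in precursors (at least 42.8-fold), whereas Gria4 stood at 681, 675, 368 and 644 CPM against 1189, 1041, 1259 and 1470.4 CPM (log2 change -1.24, SE 0.26). Grm5, a metabotropic receptor, stood at 0, 0, 39.4 and 14.98 CPM against 1488, 1226, 1622 and 1827 CPM, and Grin3a, an NMDA receptor subunit, at 0, 0, 13.1 and 0 CPM against 629, 803, 639 and 791 CPM. Grik2, a kainate receptor subunit, was held in common (851, 1407, 2050.4 and 1663 CPM against 1373, 1051, 1227 and 1287 CPM, log2 change 0.46, 95% interval 0.02 to 0.90). Held in common means here that this interval lay within -1 and 1, not that the levels were equal. Grik2 was higher in oligodendrocytes in each library tested, and it missed the rule without w8 and with DESeq2.

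GABA receptor genes gave 6 lower calls (30.2% of all genes tested) and 1 higher (22.1%) among 7 tested of 13. Gabrb1 (-4.16, SE 0.74), a subunit of the chloride channel, was lower, and Gabrg3 had no UMI in oligodendrocytes (at least 22.6-fold higher in precursors). The subunits of the metabotropic GABA-B receptor went opposite ways. Gabbr1 was higher in oligodendrocytes (213, 356, 210.3 and 149.8 CPM against 53.7, 48.6, 75.1 and 83.5 CPM, log2 change 1.70, SE 0.42) and Gabbr2 was lower (0, 0, 26.3 and 0 CPM against 69.0, 92.4, 138 and 139 CPM, 2 oligodendrocyte UMIs, ratio 11.9, counting interval 3.16 to 100.2). The Gabbr1 call was lost without w2 (adjusted p = 0.0572).

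Of 27 channel genes 20 were tested, and 16 were lower and 1 was higher, against 30.2% and 22.1% of all genes tested (median log2 change -3.47). Kcnd2, the pore of the A-type potassium current, stood at 0, 18.8, 13.1 and 30.0 CPM in oligodendrocytes against 5361, 4471, 4739.8 and 5909.6 CPM in precursors, while mature granule neurons (GCmat1) stood at 5299 CPM. Scn1a, a sodium channel, had no UMI in oligodendrocytes (200.4 to 268 CPM in precursors, at least 14.2-fold), while Scn8a had a log2 change of 0.05 (SE 0.48, 95% interval -0.98 to 1.07). The calcium channel genes Cacna1c and Cacna1d had log2 changes of -2.43 and -3.69, and Cacna1a and Cacna1e, with 2 and 1 oligodendrocyte UMIs, had ratios of 40.9 (11.2 to 339.5) and 33.8 (5.93 to 1351). The potassium channel gene Kcna6 was the higher one (128, 169, 92.0 and 165 CPM against 76.7, 53.5, 25.0 and 50.1 CPM, log2 change 1.65, SE 0.41; lost with DESeq2, adjusted p = 0.0650), and Kcnq3 (-0.28, 95% interval -0.82 to 0.27) and Cacna2d1 (-0.17, -0.80 to 0.46) were held in common.

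Adhesion molecules and synaptic organisers showed the same direction, 19 lower and 0 higher among 23 tested of 29 (30.2% and 22.1% of all genes tested), with a median log2 change of -2.82. Lsamp, a surface protein of the IgLON family, stood at 1064, 450.1, 473 and 404 CPM against 17056, 13875, 14401 and 15545 CPM (log2 change -5.09, SE 0.21). Nxph1, a secreted neurexin ligand, had 1 oligodendrocyte UMI in the libraries tested and stood at 3528, 3576, 3425 and 4088 CPM in precursors, with at most 28.0 CPM in the 11 other clusters. Dscam (-5.0, SE 0.33) was lower, whereas its relative Dscaml1 was held in common (809, 1275, 1236 and 1153 CPM against 1917, 1134, 1359 and 1103 CPM, -0.02, 95% interval -0.47 to 0.42). Ncam1 (0.30, -0.14 to 0.74) and Ctnna3 (0.32, -0.22 to 0.86) were held in common as well, while their relatives Ncam2 (-0.98, SE 0.24) and Ctnna2 (-2.71, SE 0.27) were lower.

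Of 30 receptors for growth factors and guidance cues 16 were tested, and 4 were higher and 8 lower. With 22.1% of all genes tested higher and 30.2% lower, the higher calls were about as frequent as over all genes. Fgfr2 stood at 1745, 2476, 2195 and 2142 CPM against 406, 389, 232 and 373 CPM (log2 change 2.74, SE 0.23), while Fgfr1 had no UMI in oligodendrocytes and 36 in precursors, too few for the test. Lpar1, the receptor for lysophosphatidic acid, stood at 213, 638, 249.7 and 449 CPM with no precursor UMI (at least 76.8-fold higher), and Ephb1 (3.12, SE 0.42) and Plxnb3 (2.10, SE 0.47) were higher. The neurotrophin receptors Ntrk2 (0, 18.8, 65.7 and 0 CPM against 445, 516, 463 and 518 CPM, -4.05) and Ntrk3 (-5.24) and the guidance receptor Dcc (-2.54) were lower, as was Robo1, with 1 oligodendrocyte UMI (ratio 72.4, counting interval 12.8 to 2873). The orphan receptor Gpr37 (42.6 to 93.8 CPM) and the netrin receptor Unc5b (59.9 to 150 CPM) had UMIs in all 4 oligodendrocyte libraries and none in precursors, at least 13.9-fold and 19.4-fold higher, although neither passed the filter on low counts.

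Transcription factors of the lineage did not move as a block, with 3 higher and 1 lower among 8 tested of 9 listed factors (22.1% and 30.2% of all genes tested). Sox10, which is needed for myelin gene expression, stood at 298, 450.1, 329 and 255 CPM in oligodendrocytes and at 452, 516, 363 and 323 CPM in precursors. The libraries overlapped, and the log2 change was -0.27 (95% interval -0.85 to 0.31). Olig1 stood at 85.1, 169, 131 and 74.9 CPM against 123, 165, 144 and 134 CPM (-0.31, interval -1.13 to 0.51), while Olig2 was lower in oligodendrocytes, at 0, 75.0, 65.7 and 30.0 CPM against 123, 97.3, 219 and 139 CPM (-1.50, SE 0.51, adjusted p = 0.0137). The Olig2 call rests on 11 and 80 UMIs and was lost without w4 (adjusted p = 0.0952), without w8 (0.0656) and with DESeq2 (0.107). Zeb2, a repressor of inhibitory signals (3532, 2701, 2418 and 2591 CPM against 721, 929, 877 and 779.8 CPM, 1.53, SE 0.20), and Qk, an RNA-binding protein that stabilises myelin transcripts (1.28, SE 0.19), were higher. Tcf12 was also higher (0.685), a call lost in several refits, such as without w4 (adjusted p = 0.124) and with DESeq2 (0.310). Tcf4 (-0.55) was not called, but several refits called it lower, such as that without w2 (adjusted p = 0.00848).

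Of the 10 factors listed as promoting differentiation 6 were tested, and 5 were higher (22.1% of all genes tested) and Tcf7l2 was lower. With DESeq2 3 were higher, Klf9 (adjusted p = 0.0984) and Creb5 (0.0545) losing their calls, and without w4 4 were, Klf9 (0.137) losing its call. Myrf, the membrane-bound activator of myelin genes, stood at 298, 131, 197 and 269.6 CPM against 7.67, 29.2, 31.3 and 11.1 CPM (log2 change 2.95, SE 0.52). St18, a zinc finger factor, stood at 4553, 3713, 4429 and 5228 CPM in oligodendrocytes against 0, 4.87, 6.26 and 5.57 CPM in precursors, and Zfp536, another zinc finger factor, at 2085, 1763, 3128 and 2576 CPM against 130.4, 204, 238 and 167 CPM (3.53, SE 0.24). Nkx6-2 had 17 UMIs in oligodendrocytes and none in precursors, too few for the filter. Of the 13 factors listed as holding precursors back 4 were tested, and 3 were lower (30.2% of all genes tested). Sox6 stood at 0, 0, 26.3 and 0 CPM against 2431, 1941, 2267 and 2590 CPM and Sox5 at 0, 18.8, 26.3 and 0 CPM against 1618, 1396, 1421 and 1709.9 CPM, whereas Nfib had a log2 change of -1.47 (SE 0.31) and Nfia one of -0.55 (SE 0.24, adjusted p = 0.0642). Nfia was called lower with RLE factors (adjusted p = 0.0423), with no filter on low counts (0.00902), with all clusters in 1 fit (0.0150) and without w2 (0.0154).

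Transcripts of cell cycle genes were few. Top2a, a topoisomerase of dividing cells, had a UMI in 4 of 131 precursor nuclei (2 in w2 and 2 in w4; 3.05%) and in 0 of 45 oligodendrocyte nuclei, against 0.0596% of GCmat1. The difference between the clusters was not tested, and 0 of 45 is compatible with a share as high as 7.87%. Mki67 had a UMI in 2.29% of precursor nuclei and in none of the oligodendrocyte nuclei, below the 9.71% of the mature granule neurons (0.763% against 2.23% with nuclei thinned to 2000 UMIs). The source of the Mki67 UMIs was not tested, and its share is not read as a measure of division. Of 18 cell cycle genes only Pola1, a DNA polymerase subunit, passed the filter. It was lower in oligodendrocytes (85.1, 37.5, 26.3 and 30.0 CPM against 153, 195, 207 and 134 CPM, log2 change -2.54, SE 0.60), and a UMI of it was found in 17.8% of oligodendrocyte nuclei, 37.4% of precursors and 37.6% of the mature granule neurons (4.44%, 21.4% and 12.8% with nuclei thinned to 2000 UMIs). Neurons that do not divide thus also had it, and its level is not read as a measure of division. Over all 4 libraries Ccnd1, a cyclin of the G1 phase, had 52 UMIs in precursors and 0 in oligodendrocytes, and the inhibitor Cdkn1b had 4 and 13.

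Besides the genes that differed, 317 (13.4% of those tested) were shared, meaning that the 95% interval of their log2 change lay within -1 and 1, and 808 were neither changed nor shared. How many genes meet this rule depends on the precision of the fit. The number fell to 134 without w2, 105 without w4 and 131 without w8, and only 6 genes met it with DESeq2. Lrp1b, a lipoprotein receptor relative (4894, 4407, 4679 and 4149 CPM against 5269, 5488, 5710.2 and 6595 CPM, -0.48, interval -0.87 to -0.08), Dlg2, a scaffold of synapses (1659.7, 1538, 1735 and 1633 CPM against 2017, 1970.3, 2110 and 2284 CPM, -0.43, -0.85 to -0.0038), Zbtb20, a zinc finger repressor (-0.49, -0.94 to -0.04), Dnm3, a dynamin (0.54, 0.09 to 0.99), and Sh3d19 (-0.01, -0.46 to 0.45) were among them. Other clusters held more of some of them, Dlg2 reaching 8039 CPM in GCmat2 and Zbtb20 14358 CPM in NB1 (neuroblasts). In the edgeR fit of w2, w4 and w8, Lrp1b (adjusted p = 0.0410) and Dnm3 (0.0429) passed the p threshold and missed a call only on the 1.5-fold limit. With no filter on low counts Lrp1b, Dlg2 and Zbtb20 were lower in oligodendrocytes (adjusted p = 0.00204, 0.0140 and 0.00748), and so were Dlg2 with all clusters in 1 fit (0.0265) and Zbtb20 without w8 (0.0238). Of the 18 shared genes named in the text, Erbb4, Dscaml1, Ncam1 and Sh3d19 met the rule without any 1 of the libraries, and the other 14 missed it without at least 1.

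Only 7 shared genes stood at least 2-fold higher in both clusters than in each of the 11 others. Erbb4, a receptor for neuregulins (ENSMUSG00000062209, chr1:68032186-69108059, minus strand), was at 2681, 3282, 4495 and 4164 CPM in the oligodendrocytes of w1, w2, w4 and w8 and at 4203, 3303, 4458 and 3587 CPM in the precursors. Its log2 change was 0.02 (SE 0.18, 95% interval -0.36 to 0.40), every one of the 176 nuclei had a UMI, and the highest other cluster, Astro, was at 325 CPM. Sox10 reached at most 3.16 CPM elsewhere (in Peri). Unc5c, a netrin receptor, stood at 1362, 2157, 2089.8 and 2277 CPM against 1733, 1440, 1490.2 and 1721 CPM (0.44, interval 0.02 to 0.86), with 681 CPM in GCmat2. The other 4 were Cobll1 (206 to 383 and 199 to 301 CPM), Evi5l (170.2 to 249.7 and 219 to 399 CPM), Cux2, a homeodomain factor (85.1 to 206 and 106 to 180 CPM), and Fbxo7, a ubiquitin ligase subunit (85.1 to 225 and 128 to 138 CPM). Their intervals were wider, for example -0.81 to 0.85 for Fbxo7, which had 28 and 72 UMIs in the libraries tested.

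**Figure D5:**
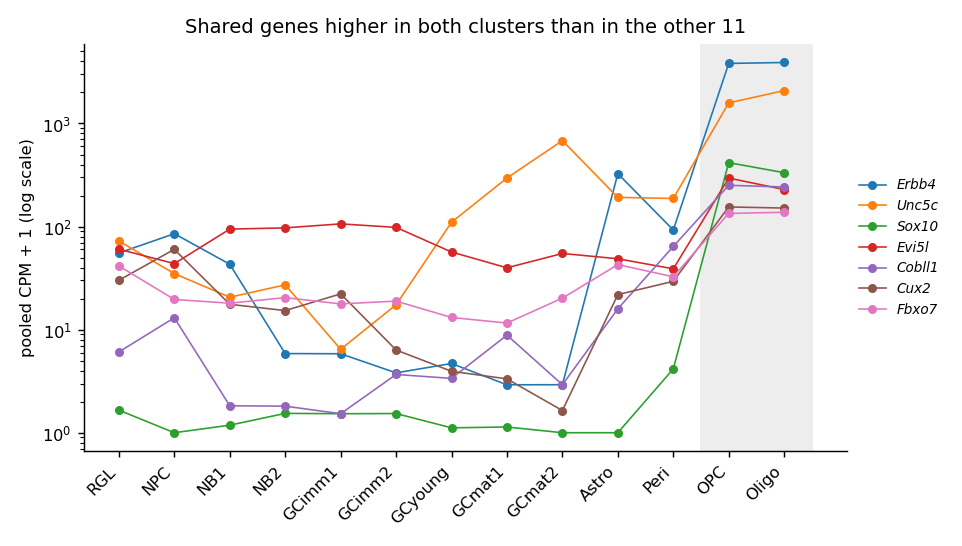
Pooled CPM with 1 added (log scale) of the 7 shared genes in the 13 clusters of the series, with OPC and Oligo shaded. Each gene lies at a similar level in OPC and Oligo and at least 2-fold above the other 11 clusters; Sox10 falls to at most 3.16 CPM elsewhere and Erbb4 to at most 325 CPM.

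Markers of other cells were looked at in the same sums. The 10 astrocyte markers summed to 135 to 213 CPM in the oligodendrocyte libraries and to 657 to 913 CPM in the precursor libraries, and the 3 tested were lower in oligodendrocytes, as were 30.2% of all genes tested. They were Slc1a2 (0, 18.8, 26.3 and 0 CPM against 253, 248, 344 and 289.6 CPM), Slc1a3 (170.2, 75.0, 39.4 and 30.0 CPM against 322, 229, 250.4 and 496 CPM) and Slc4a4. Their levels in Astro or RGL were 7900, 4784 and 2184 CPM, and Gfap, Aqp4 and Fgfr3 had 0 UMIs in oligodendrocytes and at most 4 in precursors over the libraries tested. Glul, a list member that was not tested, went the other way, with a UMI in 26.7% of oligodendrocyte and 8.40% of precursor nuclei. With nuclei thinned to 2000 UMIs its shares were 20.0% and 5.34%. With all clusters in 1 fit 10 astrocyte markers were tested, 1 higher and 3 lower. The 10 granule neuron markers summed to 298 to 419 and to 429 to 545 CPM. Prox1, a homeodomain factor of granule neurons that is also known in oligodendrocytes, was higher in oligodendrocytes (298, 225, 131 and 225 CPM against 61.4, 38.9, 37.6 and 16.7 CPM, log2 change 2.56, SE 0.46), while Snap25, a synaptic protein, was lower (0, 18.8, 39.4 and 30.0 CPM against 215, 234, 219 and 262 CPM, -2.98, SE 0.61). A UMI of Prox1 was found in 55.6% of oligodendrocyte and 16.0% of precursor nuclei, against 85.5% of GCmat1, and one of Snap25 in 13.3%, 64.1% and 98.3%. With nuclei thinned to 2000 UMIs the shares were 20.0%, 9.92% and 44.9% for Prox1 and 4.44%, 41.2% and 75.3% for Snap25. Of these genes the granule neurons thus had the synaptic one in more nuclei, as did the precursors, and the oligodendrocytes the homeodomain factor. Vascular markers had 0 UMIs in oligodendrocytes, and the 7 microglia markers summed to at most 113 and 92.0 CPM, with Csf1r, C1qa, Inpp5d and Tmem119 at 0 in both clusters.

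The share of the 2 clusters was low at every time point. At 1, 2, 4 and 8 weeks oligodendrocytes made up 0.209% (exact 95% interval 0.0768 to 0.455%), 0.236% (0.113 to 0.433%), 0.418% (0.239 to 0.677%) and 0.379% (0.202 to 0.648%) of the nuclei, and precursors 0.872%, 0.848%, 0.914% and 1.02%. Among the nuclei of both clusters, the oligodendrocytes were 19.4% (7.45 to 37.5%), 21.7% (10.9 to 36.4%), 31.4% (19.1 to 45.9%) and 27.1% (15.3 to 41.8%). The intervals cover counting error only and overlap, and each week is 1 pool, so no change with time was detectable or tested. No barcode of these nuclei recurred in another library.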

How the data were processed

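Nuclei were sequenced with 10x Genomics 3′ chemistry. Per the labels and the study's methods, the authors aligned reads with STARsolo 2.7.4a to GRCm38 (mm10), left out multi-mapped reads, counted exonic and intronic UMIs and removed doublets with scDblFinder. The authors also left out a group of w4 nuclei, which they proposed could come from a single outlying male mouse. They deposited whole UMI counts for 45706 features and a table of log2 expression, scaled with scran size factors, with each nucleus's library and cluster. From that table only the cluster names were used. Gene positions are from GENCODE M21 (45143 IDs matched; 2358 of the 2360 tested) and promoter sequences from RefSeq.

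UMIs were summed per library and cluster (Oligo 53321, 76082 and 66762 UMIs in w2, w4 and w8; OPC 205550, 159713 and 179539; w1 held 23499 and 130396, from 6 and 25 nuclei). The 6 sums of w2, w4 and w8 were fitted with edgeR 4.0.16 (filterByExpr, TMM, glmQLFit, glmQLFTest; library and cluster as terms; 2 residual degrees of freedom) in R 4.3.3. Both clusters of a library come from the same pooled mice, which is where the pairing comes from. Changed genes had a 1.5-fold or larger change, with a Benjamini-Hochberg adjusted p no higher than 0.05. Fold bounds take a count of 0 as 3 UMIs over the libraries tested (15.3 CPM in Oligo, 5.51 CPM in OPC). Shares have exact Clopper-Pearson intervals at 95%, from which the counting intervals of ratios were also derived. These cover counting error only. The script was tested on simulated counts. Alternatives were DESeq2 1.42.0, a fit with no library term, the filter on low counts dropped, RLE factors, other minimums of nuclei, all clusters in 1 fit, 2000 UMIs per nucleus, nuclei with markers of the other cluster or with a UMI of Top2a or Mki67 left out, each library left out and other thresholds. The genes named are those of the gene lists, the 15 largest fitted increases and decreases with at least 50 UMIs and 1 direction in all libraries tested, the 10 shared genes with the highest mean CPM and all 7 shared genes high in the lineage, plus any said to be chosen after their values were seen. The members and the lists were chosen with earlier results of these data known. Values of some genes in the lists are not reported here.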

Additional observations from a re-analysis of the deposited data

Results flagged for a closer look

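Among 81 pairs of a gene of the marker and lineage lists and a cluster, with at least 10 UMIs over the 4 libraries, 6 had 1 library far from the other 3, where chance gives about 1 in 20. Hapln2, a link protein of the node of Ranvier, stood at 596 CPM in the w1 oligodendrocytes (14 UMIs in 4 of 6 nuclei) against 26.3 to 75.0 CPM in the other libraries, and Anln at 468 CPM (11 UMIs in 3 of 6 nuclei) against 13.1 to 59.9 CPM. In the same 6 nuclei S100b stood at 170.2 CPM against 26.3 to 44.9 CPM, but on 4 UMIs, and Qk at 3362 CPM, below 4419 to 4614 CPM elsewhere. The w1 nuclei were not among the libraries tested. Pde4b in the w8 oligodendrocytes stood at 15413 CPM against 11149 to 11440 CPM, and Itpr2 in the w8 precursors at 507 CPM against 568 to 570 CPM. Both remained on the same side of the other cluster in every library.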

How the results depend on the processing

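The 1235 changed genes (522 higher, 713 lower) became 1885 with no filter on low counts (544 higher and 1341 lower of 15176 tested, so that 28.9% of the changed genes were higher against 42.3%), 2304 with all clusters in 1 fit (774 and 1530 of 11548) and 635 at 2000 UMIs per nucleus (259 and 376 of 961). Leaving out 1 library gave 1234 to 1244 changed genes (495 to 522 higher, 721 to 739 lower), no library term as a replicate block 1284, DESeq2 957, RLE factors 1235, a fold change of at least 2 1159 and all 4 libraries 1111; the minimum of 1 nucleus gives the same 4 libraries as that of 5. The 317 shared genes became 6 with DESeq2, 502 with all clusters in 1 fit, 67 at 2000 UMIs per nucleus, 7 with the interval within log2 of 1.5, and 105 to 134 without 1 library. Of 167 changed genes that are in the lists or were named by the rule, 150 kept their call in each of the 12 refits that tested them, 17 lost it in at least 1 and 0 reversed. Not every gene was tested in every refit, least of all in that at 2000 UMIs per nucleus, with 961 genes tested. The 17 were Acsl3, Bcas1, Cadm4, Creb5, Fyn, Gabbr1, Gal3st1, Gjc3, Gsn, Kcna6, Kcnip4, Klf9, Olig2, Scn2a1, Sirt2, Tcf12 and Tns3. Some genes that were not called, among them Nfia, Grm7, Sema6a, Tmem163, Dlg2, Lrp1b and Zbtb20, were called in at least 1 refit. The fit without the library term called 519 of the 522 and 712 of the 713 genes again. Other refits called fewer of the same genes, although the totals without a library hardly moved. Of the 522 higher genes, 453, 439 and 454 were called again without w2, w4 and w8. Of the 713 lower genes, 668, 652 and 663 were. DESeq2 called 367 and 588 again. With no filter on low counts nearly all of the 713 but a smaller share of the 522 were called again. Shares of nuclei by week stayed within their intervals with all barcodes as the denominator. They moved most in w4, from which the authors left out a group of nuclei, so that 3831 nuclei stood against 5459 barcodes. There the precursor share went from 0.914% to 0.641%, near the lower limit of 0.637%, and the oligodendrocyte share from 0.418% to 0.293%.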

Other observations

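Some well-known genes of the lineage could not be read in these counts. Trf (transferrin), an abundant transcript of oligodendrocytes, had 0 UMIs in all nuclei of both clusters. In GENCODE M21 it overlaps Gm20425 on the same strand (chr9:103204001-103230444 and chr9:103190208-103230307, minus strand), and Gm20425 had 0 UMIs as well. Sox2, a factor of precursor cells, was also at 0 in both clusters and lies within Sox2ot on the same strand (chr3:34650405-34652461 in chr3:34104270-34682619, plus strand). Sox2ot itself stood at 1958, 1594, 1380.1 and 1872 CPM in oligodendrocytes and at 3175, 4164, 3287 and 4249.8 CPM in precursors, lower in oligodendrocytes (log2 change -1.32, SE 0.19). How reads in overlapping genes were counted was not tested, and the level of 0 for Trf and Sox2 is not read as absence. Sox2ot and Gm20425 were chosen after their values were seen.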
